A study of Mus musculus with 12 samples.

Results

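Amino acid transporter genes were followed through T cell development in the mouse thymus, in Ikaros-deficient (IkL/L) and wild-type (WT) thymocytes. They were taken by gene symbol: Slc7a11, Slc7a5, Slc7a6, Slc3a2, Slc1a5, Slc1a4, Slc38a1, Slc38a2 and Slc6a19. These 9 genes had 18 of the 45099 probe sets on the array and made up 9 of the 11649 genes tested. RNA from sorted cells was hybridised to Affymetrix arrays in 6 groups of 2 arrays: IkL/L and WT cells at each of 3 stages, DN3, DN4 and DP. DN3 and DN4 cells are precursors without the co-receptors CD4 and CD8, and DP cells carry both. By the title of the series, IkL/L cells are deficient in Ikaros, a transcription factor of lymphocytes and their precursors that Ikzf1 encodes. For each sort the cells of 3 mice were combined, the age of the mice is not given in the labels, and no agent or other allele is named. The labels do not say whether the arrays of a group came from separate pools, so p values measure the spread between arrays, which in the WT groups may be technical. The comparisons ask how each transporter gene changes between stages and whether IkL/L cells differ from WT cells at a stage.

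Cells take up amino acids through solute carriers that differ in substrates and in driving force. Slc7a5 (LAT1), Slc7a6 (y+LAT2) and Slc7a11 (xCT) are light chains that work as heterodimers with the glycoprotein encoded by Slc3a2, the CD98 heavy chain. LAT1 exchanges large neutral amino acids such as leucine, y+LAT2 exchanges cationic for neutral amino acids, and xCT imports cystine in exchange for glutamate, which feeds glutathione synthesis. Slc1a5 (ASCT2) and Slc1a4 (ASCT1) exchange small neutral amino acids, with glutamine among the substrates of ASCT2. Slc38a1 (SNAT1) and Slc38a2 (SNAT2) carry glutamine and other neutral amino acids with sodium, and Slc6a19 (B0AT1) is a sodium-coupled carrier best known from the brush border of kidney and intestine. In T cells, LAT1 with CD98 is known for its induction in dividing cells, and Atf4 is known to switch on several of these genes when amino acids are short.

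The promoters of 3 genes are shown, chosen by their levels or motifs. Slc7a11 and Slc6a19 were the members around or below the array median before the DP stage and bright in it. Slc1a4 holds a motif of the Slc7a11 promoter and was lower in DP cells. RefSeq (GRCm38.p6) had a promoter entry, 250 bases before to 50 bases after the start of the gene, for 6 of the 9 genes, and none for Slc7a5, Slc1a5 and Slc38a1. The sequences are from chr3:50443564-50443863 (Slc7a11), chr11:20332664-20332963 (Slc1a4) and chr13:73692587-73692886 (Slc6a19), all on the minus strand and read 5′ to 3′ along the gene. Capitals mark the amino acid response element TGATGNAA, bound by Atf4 and related factors, and the core TGGGAA of the Ikaros motif, each on either strand.
Slc7a11: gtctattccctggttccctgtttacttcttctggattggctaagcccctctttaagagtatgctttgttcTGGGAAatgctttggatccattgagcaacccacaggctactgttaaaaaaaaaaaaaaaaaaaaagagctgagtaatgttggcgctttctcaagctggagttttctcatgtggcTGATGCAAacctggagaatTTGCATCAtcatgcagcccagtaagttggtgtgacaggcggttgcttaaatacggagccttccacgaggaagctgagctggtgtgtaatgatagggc
Slc1a4: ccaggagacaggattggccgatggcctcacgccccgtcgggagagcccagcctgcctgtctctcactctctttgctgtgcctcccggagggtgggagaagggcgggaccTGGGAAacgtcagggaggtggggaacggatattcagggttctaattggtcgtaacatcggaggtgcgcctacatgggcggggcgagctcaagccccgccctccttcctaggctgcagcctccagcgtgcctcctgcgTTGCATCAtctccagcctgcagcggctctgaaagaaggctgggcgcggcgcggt
Slc6a19: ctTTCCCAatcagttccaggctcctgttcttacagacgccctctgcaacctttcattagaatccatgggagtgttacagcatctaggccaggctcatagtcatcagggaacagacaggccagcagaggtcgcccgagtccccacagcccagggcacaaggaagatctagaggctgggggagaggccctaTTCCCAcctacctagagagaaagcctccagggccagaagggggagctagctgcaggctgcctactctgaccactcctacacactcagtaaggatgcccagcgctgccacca

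The Slc7a11 promoter held TGATGCAA at bases -66 to -59 from the start and, on the other strand, TTGCATCA at -47 to -40, and Slc1a4 held TTGCATCA across its start, at -4 to 4. This element was found in 3.97% of 32851 RefSeq promoters of the same length. The Ikaros core was at -180 to -175 in Slc7a11, at -141 to -136 in Slc1a4, and on the other strand at -248 to -243 and -61 to -56 in Slc6a19 and at -124 to -119 in Slc3a2. With 25.6% of all promoters holding that core, its presence is common. An antioxidant response element TGACNNNGC, the motif bound by Nrf2 and present in 12.4% of promoters, was found as TGACGCGGC in Slc38a2 and as TGACGTGGC in both entries of Slc7a6. The E-box CACGTG, present in 7.15% of promoters, was in none of the 6 genes' windows. The motifs did not overlap each other, and a match describes letters in a window, not a bound site.

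Values are log2 signals as deposited, so a difference of 1 is a doubling of signal. The array medians lay between 5.14 and 5.22. Replicate arrays correlated at r = 0.986 to 0.995 across genes, and genes are not independent replicates. Ikzf1 averaged 11.23, 11.20 and 11.65 in IkL/L DN3, DN4 and DP cells, against 11.88, 11.83 and 12.35 in WT cells, which is 61.7% to 64.5% of the WT signal and a fall at each stage (limma, adjusted p = 0.00454 to 0.0101). A list of 7 DP genes, Cd4, Cd8a and Cd8b1 among them, had a mean level of 12.02 to 12.24 in IkL/L DP and 12.09 to 12.39 in WT DP arrays, and 8.34 to 9.28 on the DN3 and DN4 arrays of both genotypes, as the stage labels say. A list of 8 DN3 genes had a lower mean level in IkL/L DN3 cells, at 9.61 to 9.80, against 10.52 to 10.58 in WT DN3 cells. Of the 8 genes 1 was called, Cdh1, at 4.41 and 4.23 in IkL/L and 8.06 and 7.80 in WT DN3 cells, while Il2ra was 10.30 and 10.50 in IkL/L and 10.71 and 10.72 in WT DN3 cells. Some arrays stood apart. On the 3 IkL/L replicate 2 arrays, 0 of 3 Y-linked genes reached the array median, against 2 or 3 on every other array, and the labels do not give the sex of the mice. The 2 arrays of each IkL/L group therefore do not share a pool of mice. The IkL/L DN3 and DN4 replicate 1 arrays carried more of the erythroid gene Alas2 (8.80 and 8.64) than replicate 2 of the same groups (5.65 and 5.85). The myeloid gene S100a8 was also higher on these DN3 and DN4 arrays, at 8.96 and 7.09, against 5.33 and 4.49 on replicate 2 of the same groups. IkL/L DP replicate 2 carried more of the mature T cell gene Il7r (7.72) than IkL/L DP replicate 1 (5.62), and S100a8 was 6.43 against 4.68. A list of mature T cell genes averaged 6.53 to 7.50 on the IkL/L DP arrays, against 6.94 to 7.03 on the WT DP arrays.

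The levels of each transporter gene on all 12 arrays are plotted by stage. Levels of different genes are not set against each other, since each probe set has its own response.

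**Figure D1:**
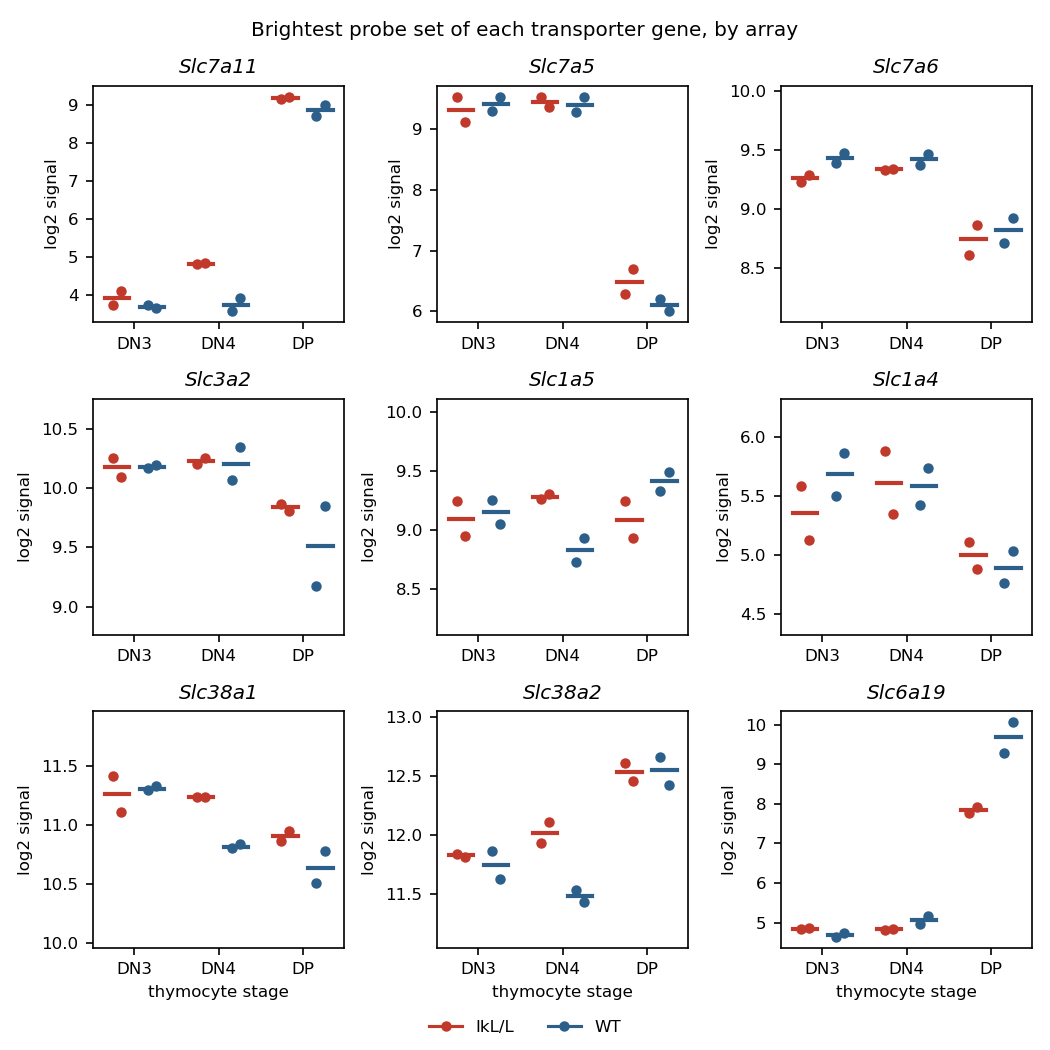
Log2 signal (y axis, its range set per gene) of the brightest probe set of the 9 transporter genes in DN3, DN4 and DP cells (x axis). Points are arrays, lines are means of 2 arrays, IkL/L in red to the left of WT in blue. Slc7a11 and Slc6a19 lie around or below the array median in DN3 and DN4 cells and high in DP cells. Slc7a5 is high in DN3 and DN4 cells and lower in DP cells, and the other 6 genes move by about 1 log2 unit or less.

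The step into the DP stage changed most of the transporter genes. In IkL/L cells 6 of the 9 genes passed the test between DP and DN4 cells, Slc7a11, Slc38a2 and Slc6a19 higher and Slc7a5, Slc7a6 and Slc1a4 lower, while 45.5% of all tested genes were called in that step. In WT cells 8 of 9 passed, Slc7a11, Slc1a5, Slc38a2 and Slc6a19 higher and Slc7a5, Slc7a6, Slc3a2 and Slc1a4 lower, while 57.0% of all tested genes were called. With so many genes changing at this step, the counts of 6 and 8 are not particular to these genes. The median size of the difference, sign aside, was 0.60 for the 9 genes and 0.38 for all tested genes in IkL/L cells, and 0.70 and 0.49 in WT cells. A gene was called where its limma p, adjusted by Benjamini-Hochberg across the 11649 tested genes, was under 0.05. In a sorted pool, fewer cells that express a gene and less RNA per cell cannot be told apart.

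Slc7a11, the cystine importer, switched on at the DP stage. Its signal was 9.17 and 9.22 in IkL/L DP cells, against 4.80 and 4.83 in IkL/L DN4 cells. In WT it was 8.72 and 9.01 in DP cells, against 3.56 and 3.91 in DN4 cells. All 4 DP arrays were far above all 8 earlier arrays, and these were all below the median of their array, so the gene was tested because of its DP arrays. The step was 4.38 ± 0.17 (log2 difference ± SE, 20.8-fold, adjusted p = 3.46e-08) in IkL/L and 5.13 ± 0.17 (35.1-fold, adjusted p = 1.22e-08) in WT cells. A level under the array median may be mostly background, so these folds may be lower limits, and the background itself was not estimated. The second Slc7a11 probe set showed the same switch on a smaller scale, 2.98 in IkL/L (adjusted p = 3.66e-06 over all probe sets) and 3.04 in WT cells (1.59e-06).

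Slc7a5, the leucine carrier LAT1, moved the other way. Its signal was 6.29 and 6.70 in IkL/L DP cells, against 9.52 and 9.36 in IkL/L DN4 cells. WT cells had 6.21 and 6.0 at the DP stage, against 9.28 and 9.52 at DN4. The DN3 arrays of both genotypes lay between 9.12 and 9.53, so the DP arrays stood below all 8 others. DP cells kept 13% of the DN4 signal in IkL/L (-2.95 ± 0.18, adjusted p = 3.39e-07) and 10.2% in WT cells (-3.30 ± 0.18, adjusted p = 8.18e-08). All 12 Slc7a5 values, from its 1 probe set, were above the array median, so the gene was lower in DP cells but not at the floor. Slc7a6, the other leucine-handling light chain, fell far less. Its DP signals were 8.61 and 8.86 in IkL/L and 8.71 and 8.92 in WT cells, against 9.33 and 9.34 in IkL/L DN4 and 9.37 and 9.46 in WT DN4 cells. The fall was -0.60 in each genotype (adjusted p = 0.00259 in IkL/L and 0.00195 in WT cells), and the second probe set fell as well, with -0.96 in IkL/L (adjusted p = 0.00452 over all probe sets) and -0.78 in WT cells (0.00909).

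Slc3a2, the heavy chain shared by these 3 light chains, followed neither extreme. Its single probe set read 9.87 and 9.81 in IkL/L DP cells, against 10.21 and 10.26 in IkL/L DN4 cells. The WT values were 9.17 and 9.85 in DP cells, against 10.07 and 10.35 in DN4 cells. The DP arrays were below the DN4 arrays in both genotypes, and the WT DP arrays were far apart. The difference was -0.40 ± 0.19 in IkL/L (adjusted p = 0.114) and -0.70 ± 0.19 in WT cells (adjusted p = 0.00767), so the fall passed the test in WT cells. It rests on the lower WT DP array: without WT DP replicate 1 the Slc3a2 difference was -0.37 (adjusted p = 0.0747), and without WT DN4 replicate 2 the call was also lost.

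Of the Slc1 exchangers, Slc1a5 rose into the DP stage in WT cells alone by the test within a genotype. In IkL/L it was 9.24 and 8.93 in DP cells, against 9.26 and 9.30 in DN4 cells, with both DP arrays below both DN4 arrays. In WT it was 9.33 and 9.49 in DP cells, against 8.73 and 8.93 in DN4 cells (0.58 ± 0.16, adjusted p = 0.00768). The difference between those steps, -0.78, did not pass its own test (adjusted p = 0.142), so Slc1a5 is not shown to respond differently in the genotypes. The dimmer Slc1a5 probe set was called in no comparison, and without WT DN4 replicate 1 the WT rise was not called (adjusted p = 0.0662). Slc1a4 was dim, at or above the array median on 7 of 12 arrays, and its 2 further probe sets failed the filter on dim signals. Its signals were 5.11 and 4.88 in IkL/L DP cells, against 5.88 and 5.34 in IkL/L DN4 cells. In WT it read 4.76 and 5.03 in DP cells, against 5.42 and 5.73 in DN4 cells. The falls were -0.61 (adjusted p = 0.0394) in IkL/L and -0.69 (adjusted p = 0.0192) in WT cells. Without the IkL/L DN4 replicate 1 array, or either IkL/L DP array, the IkL/L fall of Slc1a4 was not called (adjusted p up to 0.331). The WT fall was lost without WT DN4 replicate 2 or WT DP replicate 1 (adjusted p up to 0.14).

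The sodium-coupled carriers Slc38a1 and Slc38a2 were bright at every stage. Slc38a2, a gene known for its induction when amino acids are scarce, was 12.61 and 12.46 in IkL/L DP cells, against 11.94 and 12.11 in IkL/L DN4 cells. In WT it was 12.66 and 12.43 in DP cells, against 11.54 and 11.44 in DN4 cells. DP arrays were above all DN4 arrays, by 0.51 ± 0.14 in IkL/L (adjusted p = 0.00965) and 1.05 ± 0.14 in WT cells (2.07-fold, adjusted p = 4.81e-05). The IkL/L rise was 0.43 to 0.60 on leaving out each array in turn, and its call was lost without IkL/L DN4 replicate 1 or IkL/L DP replicate 1. The difference between the genotypes' Slc38a2 steps did not pass its limma test on the brightest probe set (-0.54, adjusted p = 0.227). It was -1.47 on the second probe set (adjusted p = 0.286 over all probe sets) and -1.16 on the dimmest (0.0426), which was called. Slc38a1 was the member with no call at this step by its brightest probe set. It read 10.87 and 10.95 in IkL/L DP cells, against 11.24 and 11.24 in IkL/L DN4 cells, and 10.51 and 10.78 in WT DP cells, against 10.81 and 10.84 in WT DN4 cells. Its second probe set was called lower in both genotypes, by -0.49 in IkL/L (adjusted p = 0.0165 over all probe sets) and -0.46 in WT cells (0.0164), so the 2 Slc38a1 probe sets agree in direction and differ in the call.

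Slc6a19, the kidney and intestine carrier B0AT1, was the other gene that came on in DP cells. Its signal was 7.77 and 7.91 in IkL/L DP cells, against 4.82 and 4.84 in IkL/L DN4 cells. In WT it was 9.29 and 10.06 in DP cells, against 4.96 and 5.17 in DN4 cells. The DN3 arrays were as low, 4.83 and 4.86 in IkL/L and 4.64 and 4.73 in WT cells. The step was 3.01 ± 0.20 (8.05-fold, adjusted p = 5.31e-07) in IkL/L and 4.61 ± 0.20 (24.3-fold, adjusted p = 2.15e-08) in WT cells. The gene reached the array median on the 4 DP arrays and on WT DN4 replicate 2, so these folds too may be lower limits. The second Slc6a19 probe set rose by 2.65 in IkL/L (adjusted p = 3.16e-05 over all probe sets) and 4.22 in WT cells (2.12e-06). In the kidney B0AT1 reaches the cell surface with collectrin (Cltrn). Cltrn stayed between 3.06 and 3.75 on all 12 arrays, below every array median, so it was not tested.

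**Figure D2:**
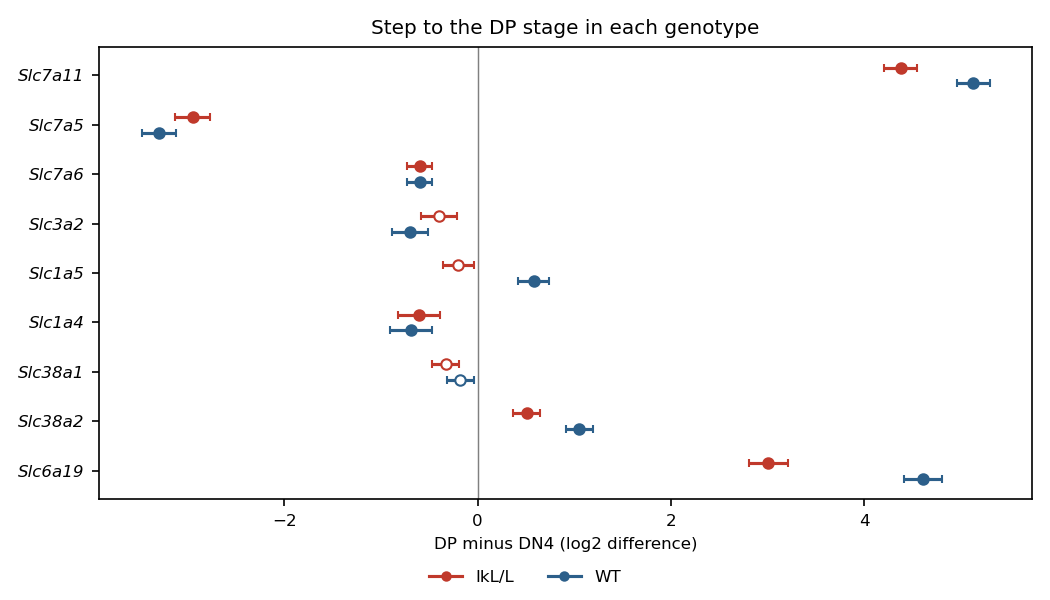
Difference between DP and DN4 cells (log2, x axis) of the 9 transporter genes, IkL/L (red) above WT (blue) in each row. Points are limma estimates from 2 arrays a group, bars are SE, and filled points have an adjusted p under 0.05. Slc7a11 and Slc6a19 are far to the right, Slc7a5 far to the left, and Slc1a5 is the gene whose estimates lie on opposite sides of 0.

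Between the genotypes, 0 of the 9 genes differed in DN3 cells, where 4.28% of all tested genes were called by limma. The sizes of the 9 differences had a median of 0.09, against 0.16 over all tested genes, and no member had an unadjusted p under 0.05. In DN4 cells 2 of 9 were higher in IkL/L cells, Slc7a11 (near background) and Slc38a2, and 0 lower. There 6.88% of tested genes were called, 4.40% higher and 2.48% lower. In DP cells 1 of 9 was called, Slc6a19, which was lower in IkL/L cells. There 5.98% of tested genes were called, 4.36% higher and 1.62% lower. With counts of 2 and 1 among 9 genes, the shares of called members rest on single genes, whose values follow.

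Slc6a19 had the largest genotype difference of the 9 genes. In DP cells it was 7.77 and 7.91 on the IkL/L arrays, against 9.29 and 10.06 on the WT arrays. The groups did not overlap, and the WT arrays were further apart than the IkL/L arrays. IkL/L DP cells had 28% of the WT signal (-1.83 ± 0.20, adjusted p = 0.000157). The second Slc6a19 probe set read 5.88 and 6.49 in IkL/L, against 7.55 and 8.10 in WT DP cells (-1.64, adjusted p = 0.00453 over all probe sets). The call of the brightest probe set held without each array in turn (-2.22 to -1.45), without the 3 IkL/L replicate 2 arrays (-1.90, adjusted p = 0.00289) and without the IkL/L DN3 and DN4 replicate 1 arrays (-1.83, adjusted p = 0.000468). Of the 7 DP stage genes 0 were called between the genotypes in DP cells by limma, and Cd8b1 was 12.70 and 12.41 in IkL/L, against 12.69 and 12.56 in WT DP cells. Of the 8 DN3 stage genes 3 were called higher in IkL/L DP cells (Ptcra, Dtx1 and Notch3), and the DN3 list averaged 8.26 to 8.52 in IkL/L DP, against 7.63 to 7.81 in WT DP cells. Of 6 tested dendritic cell genes H2-Ab1 and Tcf4 were called higher in IkL/L DP cells and 0 lower, with a median difference of 0.04 over the 6. H2-Aa overlapped between the genotypes, at 5.84 and 7.45 in IkL/L, against 7.06 and 6.45 in WT DP cells. Cd74 overlapped too, at 5.88 and 6.49, against 6.42 and 6.13. The part of these genes' cells in the Slc6a19 difference was not tested.

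Whether the Slc6a19 difference belongs to the DP stage was tested as the difference between the genotypes' steps from DN4 to DP. The IkL/L step was smaller by 1.60 ± 0.28 on the log2 scale (-1.60, adjusted p = 0.023), and 0.987% of all tested genes were called in this test. Slc6a19 was the member called. The call depended on the settings: with all probe sets in the adjustment its p was 0.0955, the second Slc6a19 probe set gave -1.57 with 0.113, and leaving out any of the DN4 arrays or either IkL/L DP array raised the adjusted p above the threshold (up to 0.102). Since the DN4 signal of Slc6a19 was near background in both genotypes, the difference of the steps largely restates the DP difference.

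Slc7a11 had a higher signal in IkL/L DN4 cells, in a range that may be mostly background. It was 4.80 and 4.83 there, against 3.56 and 3.91 in WT DN4 cells (1.08 ± 0.17, adjusted p = 0.00253). All 4 values were under the median of their array and the gene passed the filter through its DP arrays, so the call is one between signals near background and does not show that the RNA differs. The second Slc7a11 probe set read 4.01 and 4.29 in IkL/L, against 3.90 and 3.67 in WT DN4 cells, and was not called (0.36, adjusted p = 0.175 over all probe sets). The call of the brightest probe set held without each array in turn (0.91 to 1.25, adjusted p up to 0.0359), and without the 3 IkL/L replicate 2 arrays (1.06, adjusted p = 0.0181). In DP cells, where Slc7a11 is bright, it was 9.17 and 9.22 in IkL/L, against 8.72 and 9.01 in WT cells, and the difference was not called (0.33, adjusted p = 0.33). The difference between the Slc7a11 steps of the genotypes did not pass its test (-0.75, adjusted p = 0.165).

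Levels of DP stage genes in DN4 cells are given beside this result, since Slc7a11 is bright in DP cells. Cd4 was 6.50 and 6.51 in IkL/L DN4 cells, against 6.35 and 6.20 in WT DN4 cells. Cd8a was 6.90 and 6.68 in IkL/L, against 7.05 and 7.88 in WT DN4 cells, and Cd8b1 was 7.86 and 7.78, against 9.40 and 9.55. The 7-gene DP list averaged 9.03 to 9.09 on IkL/L DN4 arrays and 9.20 to 9.28 on WT DN4 arrays, with 7 of 7 genes at or above the array median in both groups. The DP genes did not move together: Cd8b1 was called lower, while Arpp21 was 11.70 and 11.82 in IkL/L, against 11.31 and 11.33 in WT DN4 cells, and Ets2 9.90 and 10.03, against 9.40 and 9.43. Slc6a19, the other gene that is bright in DP cells, was 4.82 and 4.84 in IkL/L DN4 cells, against 4.96 and 5.17 in WT DN4 cells. The 4-gene erythroid list ranged from 5.09 to 6.25 on the IkL/L DN4 arrays and from 5.30 to 5.56 on the WT DN4 arrays, and without the replicate 1 arrays where Alas2 was high the Slc7a11 difference was 1.09 (adjusted p = 0.0106).

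Markers of other cell types also differed between the genotypes in DN4 cells. The 3 tested gamma-delta and NK cell genes, Sox13, Nkg7 and Blk, were all called lower in IkL/L cells, while 2.48% of all tested genes were. The 5 genes of that list on the array averaged 5.50 to 5.58 in IkL/L, against 6.40 to 6.64 in WT DN4 cells. Sox13, Nkg7 and Blk were above the array median in WT DN3 cells too, Nkg7 at 10.38 and 10.05, so they may not mark other cell types here. The NK cell genes Klrd1 and Ncr1 were under the median on all 12 arrays. Of 6 tested genes of mature T cells 1 was called, Cd69, at 5.67 and 6.50 in IkL/L, against 8.92 and 9.38 in WT DN4 cells. Of 6 tested dendritic cell genes H2-Ab1 and Tcf4 were called higher and Cd74 lower in IkL/L cells, with list means of 6.30 to 6.38 in IkL/L and 6.33 to 6.39 in WT DN4 cells. Epcam, 1 of 4 tested genes of thymic epithelium and fibroblasts, was lower. Of 7 tested myeloid genes 0 were called, with list means of 4.70 to 5.19 in IkL/L and 4.88 to 4.98 in WT DN4 cells. The part of these cell types in the DN4 differences of the transporter genes was not tested.

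Slc38a2 was 11.94 and 12.11 in IkL/L DN4 cells, against 11.54 and 11.44 in WT DN4 cells (0.53 ± 0.14, 1.44-fold, adjusted p = 0.043). The groups did not overlap. Its second probe set read 10.39 and 10.80 in IkL/L, against 9.64 and 8.95 in WT DN4 cells (1.30, adjusted p = 0.0934 over all probe sets), in the same direction with a wide spread. The call is fragile, since leaving out any of the 4 DN4 arrays, and 4 others, raised the adjusted p above the threshold (0.44 to 0.62, adjusted p up to 0.27). Without the 3 IkL/L replicate 2 arrays the Slc38a2 difference was 0.44 (adjusted p = 0.272). Of the other members, Slc1a5 and Slc38a1 stood in the same direction in DN4 cells without passing the test. Slc1a5 was 9.26 and 9.30 in IkL/L, against 8.73 and 8.93 in WT DN4 cells (0.45, adjusted p = 0.106). Slc38a1 was 11.24 and 11.24 in IkL/L, against 10.81 and 10.84 in WT DN4 cells (0.41, adjusted p = 0.0964). The IkL/L arrays of both genes were above the WT arrays. Slc7a5, Slc3a2 and Slc1a4 overlapped between the genotypes in DN4 cells, and Slc7a6 was 9.33 and 9.34 in IkL/L, against 9.37 and 9.46 in WT DN4 cells. Slc6a19, near background there, stood lower in IkL/L DN4 cells without passing the limma test (-0.24, adjusted p = 0.491).

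**Figure D3:**
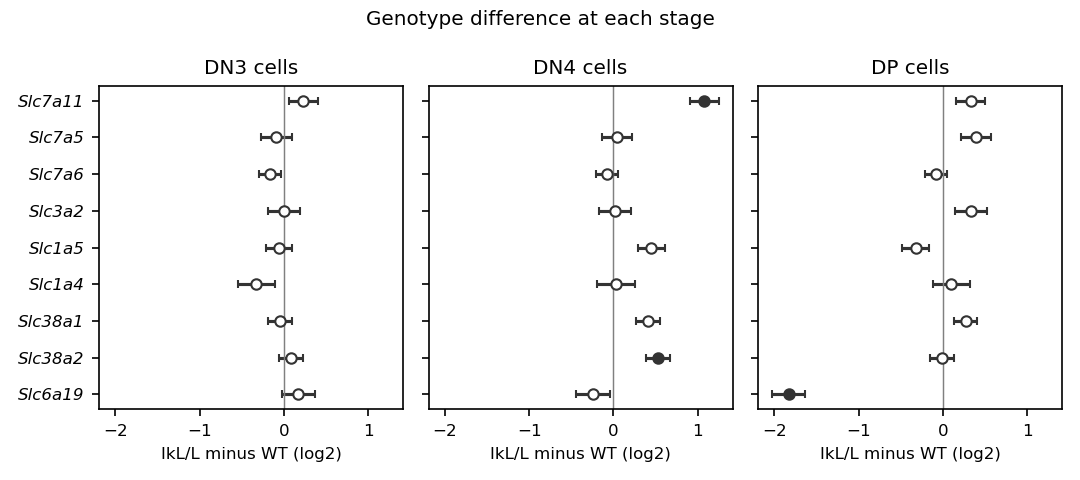
IkL/L minus WT (log2 difference, x axis) of the 9 transporter genes in DN3, DN4 and DP cells. Points are limma estimates from 2 arrays a group, bars are SE, and filled points have an adjusted p under 0.05. No gene is filled in DN3 cells, Slc7a11 and Slc38a2 are filled to the right in DN4 cells, and Slc6a19 is filled to the left in DP cells.

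In DP cells the probe sets of Slc38a2 disagreed. The brightest read 12.61 and 12.46 in IkL/L, against 12.66 and 12.43 in WT cells, and overlapped. The dimmest of the 3 read 6.13 and 6.11 in IkL/L, against 6.98 and 7.16 in WT DP cells, and was called lower in IkL/L cells (-0.95 ± 0.12, adjusted p = 0.00356 over all probe sets). For that Slc38a2 probe set the difference of the steps from DN4 to DP was called too (-1.16, adjusted p = 0.0426 over all probe sets). Into the DP stage the 3 probe sets, brightest first, differed by 0.51, 0.66 and 0.61 in IkL/L cells, of which the second was not called (adjusted p = 0.206). In WT cells all 3 rose, by 1.05, 2.13 and 1.77, with the second at an adjusted p of 0.00126 and the third at 6.61e-06. Which parts of the Slc38a2 transcript the probe sets target was not analysed here.

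**Figure D4:**
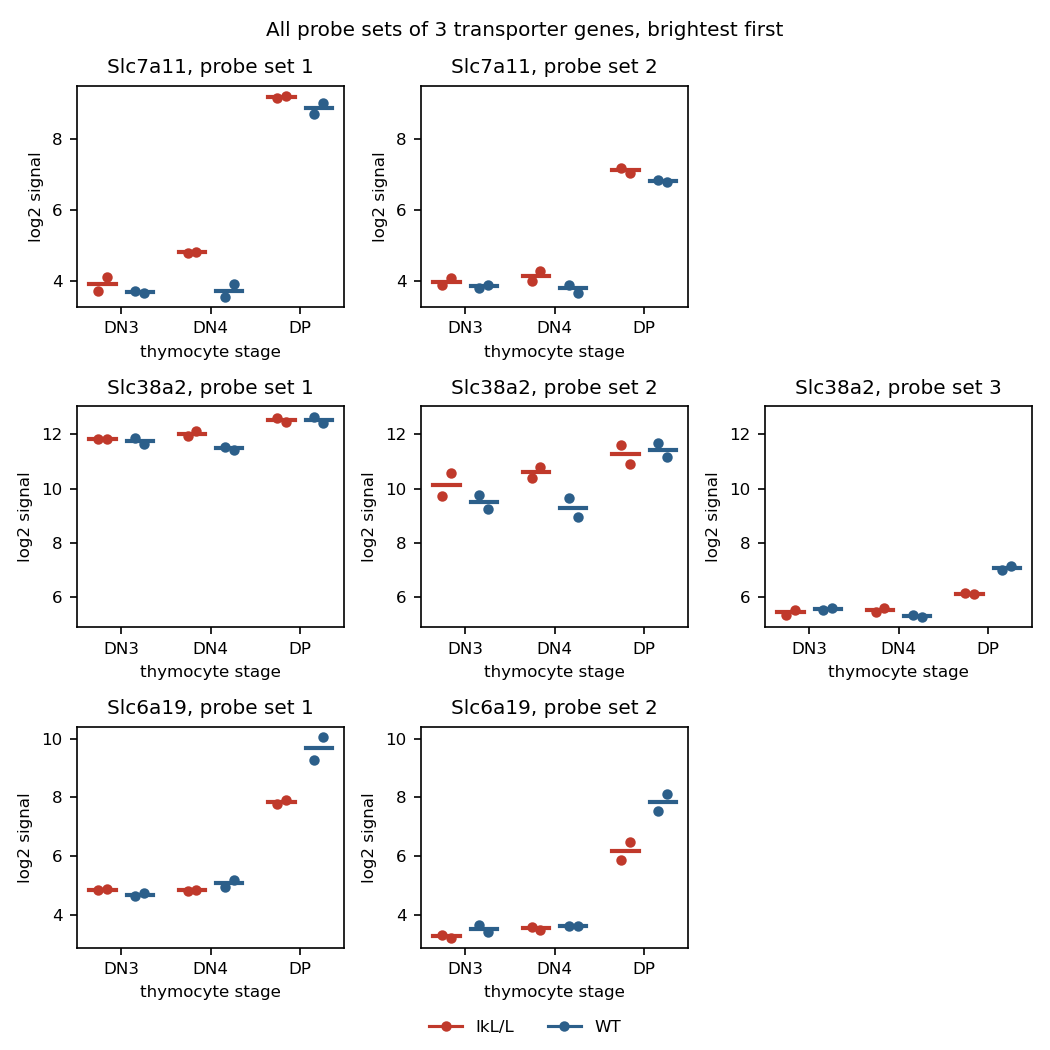
Log2 signal (y axis) of every probe set of Slc7a11, Slc38a2 and Slc6a19 by stage (x axis), brightest first. Points are arrays and lines are means of 2 arrays, IkL/L in red to the left of WT in blue. Both Slc7a11 and both Slc6a19 probe sets come on in DP cells, and of the 3 Slc38a2 probe sets the dimmest alone separates the genotypes in DP cells, at 6.11 and 6.13 in IkL/L against 6.98 and 7.16 in WT.

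Other genotype differences in DP cells were not called. Slc7a5 was 6.29 and 6.70 in IkL/L, against 6.21 and 6.0 in WT DP cells (0.39, adjusted p = 0.284), with both IkL/L arrays above both WT arrays. Slc1a5 was 9.24 and 8.93 in IkL/L, against 9.33 and 9.49 in WT DP cells (-0.32, adjusted p = 0.302). Slc3a2 had overlapping ranges at 9.87 and 9.81 in IkL/L, against 9.17 and 9.85 in WT DP cells, though without WT DP replicate 2 it too was called. Averaged over the 3 stages, 2 of 9 genes were called, while 15.5% of all tested genes were. Slc7a11 was higher in IkL/L cells by 0.54 ± 0.10 (adjusted p = 0.00243) and Slc6a19 lower, at -0.64 ± 0.12 (adjusted p = 0.00303). Both averages rest largely on the single stage named above, which for Slc7a11 is DN4, where its signal was near background. On the second Slc7a11 probe set the average was 0.26 and was not called (limma, adjusted p = 0.0874 over all probe sets). On the second Slc6a19 probe set it was -0.66 and was called (0.0144).

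From DN3 to DN4 the transporter genes changed little. In IkL/L cells 1 of 9 was called, while 4.40% of all tested genes were. Slc7a11 was 4.80 and 4.83 in IkL/L DN4 cells, against 3.72 and 4.10 in IkL/L DN3 cells (0.90, adjusted p = 0.00856). All 4 values were under the array median, and the gene was tested because of its DP arrays, so this call too is one between signals near background. Without the IkL/L DN3 and DN4 replicate 1 arrays the Slc7a11 step was 0.72 (adjusted p = 0.165), and it was also lost without either IkL/L DN4 array (adjusted p up to 0.0767). In WT cells 1 of 9 was called, while 9.25% of all tested genes were. Slc38a1 was 10.81 and 10.84 in WT DN4 cells, against 11.30 and 11.33 in WT DN3 cells (-0.49 ± 0.14, adjusted p = 0.0496). Leaving out any of 8 arrays ended that Slc38a1 call (adjusted p up to 0.237). The difference between the genotypes' DN3 to DN4 steps was called for 0 of 9 members by limma, of which Slc7a11 (0.85, adjusted p = 0.317), Slc38a1, Slc38a2 and Slc1a5 had an unadjusted p under 0.05, and for 0.0515% of all tested genes.

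Lists of related genes placed these transporters among the amino acid pathways of the cell, and they were described by counts. The 19 tested cytosolic aminoacyl-tRNA synthetases, which load amino acids onto tRNA, fell almost as a body from DN4 to DP, 18 of 19 in IkL/L and 18 of 19 in WT cells. Their median difference was -1.02 in IkL/L and -1.17 in WT cells, beside -0.038 and -0.147 over all tested genes. Of all tested genes 26.0% were called lower and 19.5% higher in IkL/L, and 33.2% lower and 23.8% higher in WT cells. Vars fell the most, with -2.31 in IkL/L and -2.76 in WT cells, and Rars was at -1.50 in each. Qars, the glutamine enzyme, was the exception, with 0.25 in IkL/L (adjusted p = 0.182) and 0.26 in WT cells (0.132). No synthetase differed between the genotypes at any stage by limma.

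Genes of amino acid metabolism mostly fell too. Of 20 tested genes for glutamine, glutamate, serine and branched-chain amino acids, 14 fell and 2 rose in IkL/L, and 15 fell and 1 rose in WT cells. Cad, which starts pyrimidine synthesis from glutamine, fell in both genotypes (-3.21 in IkL/L and -3.80 in WT cells). Bcat1, a branched-chain aminotransferase, fell likewise (-3.19 in IkL/L and -3.91 in WT cells), as did the serine enzyme Shmt2 (-2.85 and -3.28). Glul, which makes glutamine from glutamate, rose by 1.32 in IkL/L and 1.51 in WT cells. Of 21 tested genes of the Atf4 and amino acid response, 13 fell and 2 rose (Ddit3 and Ddit4) in IkL/L, and 13 fell and 1 rose (Ddit4) in WT cells. Aldh18a1, of proline synthesis, was among those that fell (-2.12 in IkL/L and -1.79 in WT cells), and so was Psat1, of serine synthesis (-2.19 and -2.20). Ddit4, an inhibitor of mTORC1 signalling, rose by 1.78 in IkL/L and 1.54 in WT cells. Asns, Psat1, Phgdh, Psph, Shmt2 and Gpt2 are in both the metabolism and the Atf4 list and fell in both genotypes, so these counts overlap. Of all tested genes 26.0% were called lower in IkL/L and 33.2% in WT cells at this step. Slc7a11 is itself known as a gene of the Atf4 response, and the part of Atf4 in its rise was not tested.

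The glutathione and Nrf2 list, which bears on the use of cystine, had 7 of 15 tested genes lower and 1 higher in each genotype, where 26.0% (IkL/L) and 33.2% (WT) of all tested genes were lower. The glutathione reductase Gsr fell (-1.94 in IkL/L and -2.09 in WT cells), and so did Gclm, a subunit of the enzyme that starts glutathione synthesis (-1.35 and -1.39). The gene that rose was Bach1, a repressor of Nrf2 target genes, by 1.41 in IkL/L and 1.60 in WT cells. Of 31 tested genes of mTORC1 and amino acid sensing, 8 rose and 5 fell in IkL/L, and 11 rose and 9 fell in WT cells. Of all tested genes, 19.5% were higher and 26.0% lower in IkL/L, and 23.8% higher and 33.2% lower in WT cells. Those with the largest rises included Bmt2 (1.80 in IkL/L and 2.73 in WT cells), which encodes a sensor of S-adenosylmethionine that restrains mTORC1, Sesn1 (1.66 and 2.08), a leucine sensor of the Sestrin family, and Rragd (1.45 and 2.51), a Rag GTPase.

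Of 47 other amino acid transporter genes on the array 24 were tested, and at the step from DN4 to DP 5 rose and 2 fell in IkL/L, and 6 rose and 5 fell in WT cells. The share of rises is about that of all tested genes (19.5% in IkL/L and 23.8% in WT cells). Falls were a smaller share of this list than of all tested genes (26.0% lower in IkL/L and 33.2% in WT cells), and that difference was not tested. Slc43a2 (LAT4), a carrier of large neutral amino acids that needs no CD98 heavy chain, was 10.74 in IkL/L DP cells, against 7.90 in IkL/L DN4 cells, and 10.92 in WT DP cells, against 8.17 in WT DN4 cells. The Slc43a2 rise was 2.84 in IkL/L (adjusted p = 3.02e-07) and 2.75 in WT cells (1.91e-07), opposite to the fall of Slc7a5. Slc38a9, the lysosomal arginine sensor, rose by 1.69 in IkL/L and 2.18 in WT cells, and Slc38a6 rose by 1.92 and 2.14. Slc7a1, a carrier of cationic amino acids, fell (-1.89 in IkL/L and -2.16 in WT cells), and so did the aromatic amino acid carrier Slc16a10, known as TAT1 (-2.32 and -1.94).

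**Figure D5:**
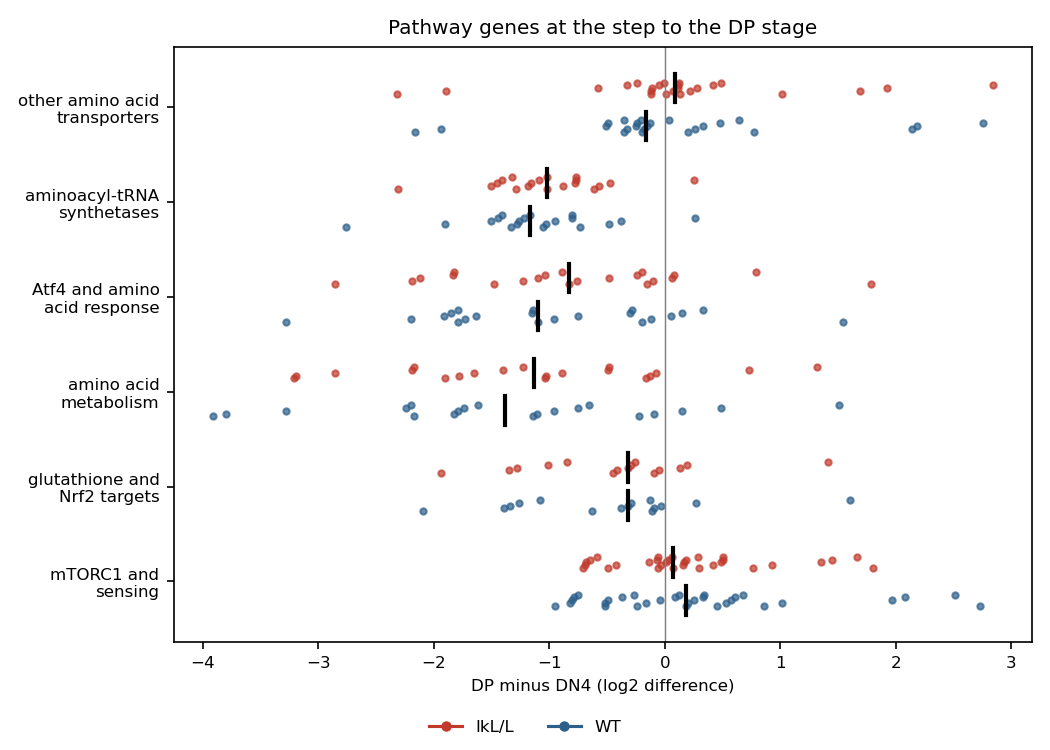
Difference between DP and DN4 cells (log2, x axis) of each tested gene in 6 lists of amino acid pathways, IkL/L (red) above WT (blue) in each list. Points are genes and black bars are list medians. The aminoacyl-tRNA synthetases lie to the left with medians of -1.02 in IkL/L and -1.17 in WT, while other amino acid transporters and mTORC1 genes spread to both sides of 0.

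Between the genotypes, the lists were counted the same way, and 0 of 19 synthetases were called by limma at any stage. In DN3 cells, where 4.28% of all tested genes were called, the calls were 0 of 24 other transporters, 3 of 21 Atf4 response genes, 1 of 31 mTORC1 genes, 1 of 15 glutathione genes and 3 of 20 metabolism genes. In DN4 cells (6.88% of all) they were 2, 2, 1, 2 and 2 of the same lists, and in DP cells (5.98% of all) 3, 2, 2, 0 and 3. A gene in several lists is counted in each. Asns and Gpt2 in DN3 cells, Asns in DN4 cells and Phgdh in DP cells count in both the Atf4 and the metabolism list. Sesn2 in DP cells counts in both the Atf4 and the mTORC1 list. In DN3 cells the Atf4 list had Cebpb (-0.89) and Asns (-0.70) lower and Gpt2 (0.94) higher in IkL/L cells, and Bcat1 (-1.03) was lower in the metabolism list. In DN4 cells Cebpb (-0.87), Asns (-0.60) and Bcat1 (-0.61) were again lower in IkL/L cells. Asns makes asparagine and is a standard gene of the Atf4 response. The part of Atf4 in the DN4 differences of the transporter genes was not tested. Among the other transporters in DN4 cells, Slc36a4 was higher (0.90, adjusted p = 0.0367) and Slc16a10 lower (-0.69, adjusted p = 0.0309) in IkL/L cells. In DP cells Slc7a1 (0.59, adjusted p = 0.0228) and Slc7a7 (0.93, adjusted p = 0.00812) were higher and Slc16a10 (-1.08, adjusted p = 0.00207) lower in IkL/L cells. Phgdh, the entry enzyme of serine synthesis, was 11.64 in IkL/L, against 10.64 in WT DP cells (1.00, adjusted p = 0.000684). In DN4 cells Bach1 was higher in IkL/L cells (0.54, adjusted p = 0.0299) and Srxn1, an Nrf2 target, lower (-0.53, adjusted p = 0.0194).

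The genes whose levels followed each transporter most closely over the 12 arrays were found by Pearson correlation, as a description, since the arrays fall into stages and any gene with a sharp step at the DP stage will score high. For Slc7a11 they were Als2cl (r = 0.995), Gtf2h4 (0.994) and Tube1 (0.994). For Slc7a5 they were Srm (r = 0.998), the spermidine synthase, 3110082I17Rik (0.997) and Smyd2 (0.997). Slc6a19 was followed by Rptoros (r = 0.993), Arhgap4 (0.990) and Adamts6 (0.987), and Slc38a2 by Thoc2 (r = 0.990), Setd7 (0.983) and Ttc14 (0.983). For Slc1a5 the highest r was 0.887.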

How the data were processed

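RNA of sorted thymocytes was labelled with 2 rounds of amplification, in 3 labelling series that the labels do not assign to samples, per the labels' protocols. The authors made the deposited log2 values with RMA (version not given), per the submitters' processing notes. Whether the arrays went through RMA together is not given in the sources used here. Arrays have no read depth, and their number limits the precision.

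Of 45099 probe sets, 34958 carried 1 gene symbol in the platform table, 932 several and 9209 none. The brightest probe set by mean stood for each of 18194 genes, and the 11649 with at least 2 arrays at or above their array's median were tested. All 9 transporter genes passed, and 16 of their 18 probe sets. With limma 3.58.1 in R 4.3.3 each of the 6 groups was given a mean in a fit of all 12 arrays (6 residual and 5.67 prior degrees of freedom). Adjustment was by Benjamini-Hochberg per contrast over all tested genes, with calls under 0.05. A second fit covered 25009 probe sets with the same filter. The fits were tested on simulated data. All p values come from limma.

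The genes, lists and tests were chosen with earlier results of these data known. The text names all 9 genes, Ikzf1 and up to 4 called genes per list and contrast by size. Ddit3, Ddit4, Glul, Qars and marker genes outside that rule were chosen after their values were seen. Alternatives were no filter or a 75th percentile filter, averaging the probe sets of a gene, a robust prior with a trend, median centring, quantile normalization again, a block for replicate number, a fit of just the contrast's arrays, omission of each array or of the 3 IkL/L replicate 2 arrays, and adjustment over all probe sets. Leaving out the IkL/L DN3 and DN4 replicate 1 arrays, and a replicate block within each genotype, were added after seeing the data. The filter and each gene's probe set stayed as chosen from all 12 arrays.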

Additional observations from a re-analysis of the deposited data

Results flagged for a closer look

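The step of Slc6a19 from DN4 to DP cells differed between the genotypes by a test of the difference itself: IkL/L minus WT was -1.60 ± 0.28 on the log2 scale (limma, adjusted p = 0.023), with a rise of 3.01 in IkL/L and 4.61 in WT cells. The DN4 signals were near background in both genotypes, so this largely restates the difference in DP cells. The call of Slc6a19 was lost with adjustment over all probe sets (0.0955), on its second probe set (-1.57, adjusted p = 0.113) and on leaving out 1 array for 6 of the 12 choices of array (highest adjusted p 0.102).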

How the results depend on the processing

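Of the member results with a call, those on Slc7a11, Slc7a5, Slc7a6 and Slc6a19 in the step from DN4 to DP, Slc38a2 in that step in WT cells, Slc7a11 in DN4 cells, Slc6a19 in DP cells and both of these over the mean of stages kept their direction and call under every alternative run. The Slc7a11 call in DN4 cells is still one between signals near background, and its average over the stages rests largely on it. Slc1a4 was not tested under the stricter filter or with its probe sets averaged, and the mean of stages was not fitted with fewer groups. No result with an unadjusted p under 0.1 changed direction. Among 48 others, 32 changed sign at least once, with values between -0.24 and 0.14 where they did. Over all runs of these 48 under the alternatives, 2 calls were made, which may be of the same result. The count of members called between IkL/L and WT DN4 cells was 1, in place of 2, with arrays centred on their median, after a second quantile normalization (which moved the median of all genes to -0.109), without the 3 IkL/L replicate 2 arrays, without the IkL/L DN3 and DN4 replicate 1 arrays and with adjustment over all probe sets. For the step from DN3 to DN4 in IkL/L the members' count was 0, in place of 1, with the arrays of the contrast alone or without the IkL/L DN3 and DN4 replicate 1 arrays. In WT it was 0, in place of 1, with probe sets averaged per gene, with centring, with the second quantile normalization, with the replicate block, without the 3 IkL/L replicate 2 arrays and with adjustment over all probe sets. For the difference between the genotypes' steps from DN4 to DP it was 0, in place of 1, without the 3 IkL/L replicate 2 arrays, without the replicate 1 arrays and with adjustment over all probe sets. The cause of these changes was not tested. Leaving out each array in turn, the members called numbered 0 in DN3 cells, 1 to 2 in DN4 cells, 1 to 2 in DP cells, 2 to 3 over the mean of stages, 0 to 1 for DN4 against DN3 in each genotype, 4 to 7 (IkL/L) and 6 to 8 (WT) for DP against DN4, and 0 (DN4 and DN3) and 0 to 1 (DP and DN4) for the difference of steps. Where a group was left with 1 array, that array was assumed to vary like those of the other groups. The mean of the probe sets took the WT rise of Slc1a5 to 0.41 (adjusted p = 0.119). With the arrays of the contrast alone Slc3a2 was called lower in IkL/L DP than DN4 cells (-0.40, adjusted p = 0.0253).

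Same-numbered arrays deviated together within WT, with correlations of deviations of 0.15 to 0.32 for its 3 pairs of stages. Within IkL/L the correlation was 0.49 for DN3 with DN4, 0.09 for DN3 with DP and 0.01 for DN4 with DP, and across genotypes it was -0.34 to 0.06, so the numbers were not taken to pair IkL/L with WT arrays. A replicate block within each genotype, chosen after seeing the data, changed no call of a member: 2 members were called in DN4 cells, 1 in DP cells, and 6 and 8 for DP against DN4 in IkL/L and WT cells, with the Slc6a19 difference of steps at an adjusted p of 0.00637. With the replicate number as a block over both genotypes, 2 members were called in DN4 cells, 1 in DP cells, 5 and 8 for DP against DN4 in IkL/L and WT cells, and 0 for DN4 against DN3 in WT cells. The block took the fall of Slc38a1 in WT cells to an adjusted p of 0.0659 and that of Slc1a4 in IkL/L DP cells to 0.0524, and changed no other call.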
